A study of Mus musculus with 15 samples.

Results

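The genes described here are 45 genes of the extracellular matrix and of its remodelling, listed by name: collagens, laminins, proteoglycans, elastic fibre proteins, lysyl oxidases, matrix proteases with their inhibitors, and matricellular glycoproteins. A gene was taken where a probe set of its own, that is one annotated with no other gene, lay above the 40th percentile of its array in at least 3 arrays. Of the 45 genes, 42 passed, among 9528 genes that passed in the whole series. These 42 genes had 76 probe sets, of which 68 passed, and each gene was represented by its brightest probe set on average. Fbn1 had no probe set of its own, and Loxl2 had only one shared with another gene. Mmp13, a collagenase, was above the 40th percentile in 2 arrays only, with a signal of 141.4 in tumour 5-1 and of at most 31.0 in the other 14 arrays. The member closest to the limit on the other side was Lox, above it in 5 arrays.

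The extracellular matrix of the liver is sparse in health. It is made of fibrillar collagens around the portal tracts, of a loose basement membrane along the sinusoids, and of proteoglycans and glycoproteins that bind both. In chronic bile duct injury, stellate cells and portal fibroblasts lay down fibrillar collagen, lysyl oxidases cross-link it, and matrix metalloproteinases and their tissue inhibitors set how much of it stays. Mdr2, whose current symbol is Abcb4, is the transporter that moves phosphatidylcholine into bile. Mice without it are a model of sclerosing cholangitis with scarring around bile ducts, followed by liver tumours.

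Gene expression was read on Affymetrix arrays in 15 samples of liver, all of mice 16 months old. Non-tumorous liver of 6 mice homozygous for the Mdr2 knockout (called knockout liver), 6 tumours of such mice, and the livers of 3 heterozygous mice (controls) made up the groups, with no treatment named. The labels give tumours the number of the mouse whose liver was also measured: mice 3 and 4 gave 1 tumour each, mouse 5 gave tumours 5-1 and 5-2, and mouse 6 gave tumours 6-1 and 6-2, so the 6 tumours stand for 4 mice. The controls carry 1 disrupted copy, and no mouse with intact copies of Mdr2 was measured here. Knockout livers 3 to 6 came from livers that also held tumours, so genotype and a tumour in the same liver cannot be told apart in them.

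Values are deposited MAS5 signals on a linear scale, with the same trimmed mean of 150.1 on every array. Changes are differences of log2(signal + 9.1), which makes the fold of a dim gene smaller than the ratio of its signals. A gene passed the test, or was called, at an adjusted p under 0.05 over all 9528 genes in limma. Hepatocyte markers were bright in every group. Summed over 6 of them, the signal was 76209.5 to 85522 in controls, 61437 to 82529 in knockout livers and 53883 to 65935 in tumours. Of 8 listed markers of fat, muscle and pancreas, 2 were measured, of muscle and pancreas. Their sum was 705.6 to 934 in the controls, 280.6 to 386.7 in the knockout livers and 147 to 545 in the tumours. In bulk tissue, fewer or more cells of a type and less or more RNA per cell cannot be told apart. Precision is limited by the small number of arrays.

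The first comparison, knockout livers against controls, asks how the matrix of tumour-free tissue differed from control liver at the same age. Of the 42 members, 7 rose and 0 fell, the 7 lying in 4 of the 8 classes: Tinag and Nid1 of basement membranes, Omd, Lum and Bgn of the small leucine-rich proteoglycans, Emilin1 of elastic fibres, and Col5a2 of the fibrillar collagens. Over all genes 1.39% were called higher and 0.315% lower. The median log2 change of the members was 0.91, against -0.02 over all genes, and 36 of 42 had a positive change, against 4550 of 9528. In 21 members the signal of every knockout liver lay above every control, which 8.03% of all genes did, and in 0 members every one lay below, which 6.79% of all genes did. The members were listed with earlier results of these data known, so these shares describe the list and do not test it. Close to background in every control were 8 members, with Tinag, Emilin1 and Col5a2 of the 7 among them. They could pass the filter only through knockout livers or tumours.

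**Figure D1:**
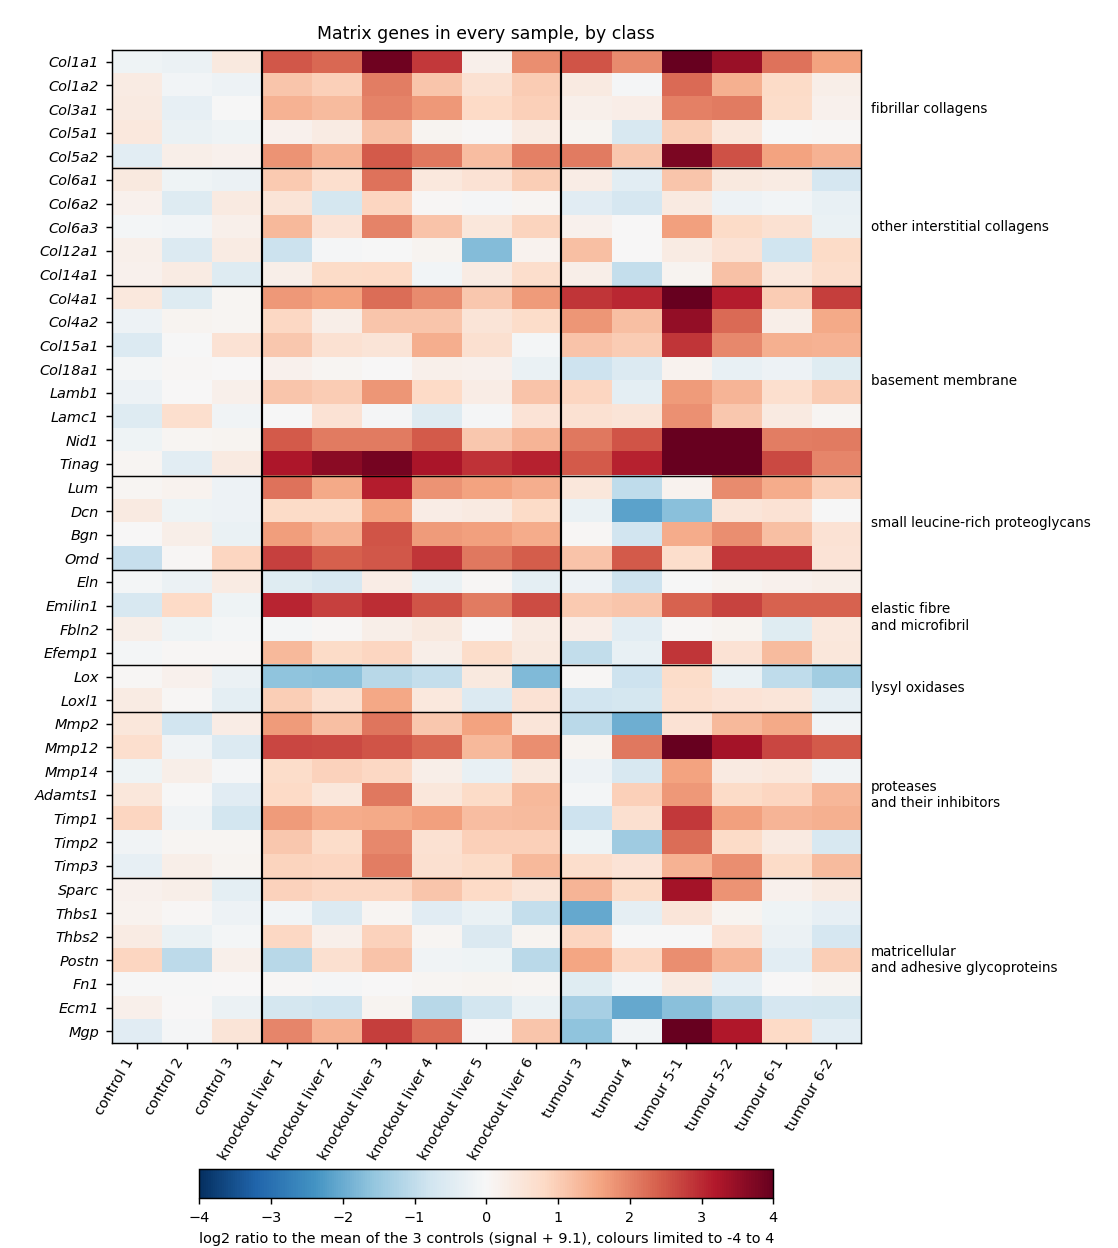
Each row is 1 of the 42 matrix genes, ordered by class, and each column 1 of the 15 samples. Colour gives the log2 ratio to the mean of the 3 controls, limited to between -4 and 4. Most knockout liver cells are red, knockout liver 3 and tumour 5-1 are the reddest columns of their groups, and tumour 4 is blue in Lum, Dcn, Bgn and Mmp2.

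Tinag, a basement membrane glycoprotein first known from kidney tubules, had the largest change of any member. Its signal was 5.2, 1.0 and 8.5 in the controls, and in the knockout livers its lowest, median and highest signals were 91.8, 121 and 183. Every knockout liver was far above every control (log2 change 3.32 ± 0.45 SE, adjusted p = 0.000974, n = 6 and 3). The controls were close to background, so the size of the change depends on the constant added before the log: it was 5.16 with no constant and 2.12 with a constant of 32, and passed the test with both. Emilin1, Col5a2, Col1a1, Col15a1, Lamb1, Mmp12 and Timp1 were close to background in the controls too, and Col5a2 missed the threshold with the constant of 32 (log2 change 1.14, adjusted p = 0.115). Nid1, nidogen 1, which links laminin to type IV collagen, had signals of 31.5, 38.6 and 39.9 in the controls and a lowest, median and highest of 87.3, 183 and 241 in the knockout livers. These groups did not overlap either, and livers 5 and 6 were the lowest of the knockout livers (log2 change 1.91 ± 0.47 SE, adjusted p = 0.0457). A second probe set of Nid1 also passed (log2 change 2.24, adjusted p = 0.035 among probe sets).

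Small leucine-rich proteoglycans bind collagen fibrils and set their spacing and width, and 3 of the 4 measured rose. Lum, lumican, gave 103, 109 and 82.6 in the controls and 281, 338 and 941 as lowest, median and highest of the knockout livers. The group ranges were separate, and knockout liver 3 stood highest by far (log2 change 1.95 ± 0.48 SE, adjusted p = 0.0469). Bgn, biglycan, gave 266, 314 and 218 in the controls and 707, 851 and 1538 in the knockout livers. Again the groups did not overlap and liver 3 was highest (log2 change 1.73 ± 0.42 SE, adjusted p = 0.0439), and all 3 probe sets of Bgn passed, with log2 changes of 1.70, 1.73 and 2.10. Omd, osteomodulin, named for its place in bone, rose from 4.9, 18.1 and 38.8 in the controls to 104, 135 and 182 in the knockout livers, without overlap (log2 change 2.5 ± 0.48 SE, adjusted p = 0.0146). Dcn, decorin, the fourth of the class, did not pass: it gave 508, 354 and 344 in the controls and 491, 676 and 1222 in the knockout livers, of which 5 lay above every control (log2 change 0.76 ± 0.48 SE, adjusted p = 0.471).

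Emilin1, a glycoprotein at the interface of elastin and microfibrils, had control signals of 3.1, 23.8 and 7.5 and knockout liver signals of 70.0, 111 and 148 (lowest, median, highest). The lowest knockout liver was well above the highest control (log2 change 2.66 ± 0.38 SE, adjusted p = 0.00146), while a second, dimmer probe set did not pass (log2 change 0.85, adjusted p = 0.50). The other measured members of that class did not pass. Efemp1, also called fibulin 3, had a log2 change of 0.71 with separate groups, Fbln2, fibulin 2, had signals between 28.3 and 46.3 in all 9 livers, and Eln, elastin itself, had mean signals of 75.4 ± 17.6 (SD, n = 3) in the controls and 63.7 ± 18.7 (SD, n = 6) in the knockout livers.

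Fibrillar collagens, the load-bearing fibres of scar, all had positive changes, and 1 of 5 passed. Col5a2, a chain of the type V collagen found inside type I fibrils, gave 5.9, 14.7 and 13.8 in the controls and 38.2, 66.9 and 102 in the knockout livers. The groups did not overlap (log2 change 1.83 ± 0.44 SE, adjusted p = 0.0440). Col1a1, the main chain of type I collagen, gave 5.0, 4.5 and 11.6 in the controls and 9.2, 74.2 and 226 in the knockout livers. Its change was larger but more scattered, since knockout liver 5, at 9.2, lay within the controls, and it missed the threshold (log2 change 2.26 ± 0.62 SE, adjusted p = 0.0728). With no constant Col1a1 passed, at a log2 change of 3.28 and an adjusted p of 0.0352, while its other probe set did not pass in any comparison. Col3a1, of type III collagen, had a change of 1.35 (adjusted p = 0.102) and Col1a2, the partner of Col1a1, of 1.14 (adjusted p = 0.160). Both had separate groups in their brightest probe sets only. The others overlapped, with changes of 0.32 for Col3a1 and 1.29 for Col1a2 (adjusted p = 0.687 and 0.183 among probe sets). Col5a1 had a change of 0.35 (adjusted p = 0.615) and a second probe set with a negative sign.

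Of the other interstitial collagens, 0 of 5 passed. Type VI collagen forms beaded filaments around cells, and 2 of its 3 chains measured lay above every control in all knockout livers. Col6a3 gave 80.2, 77.1 and 97.8 in the controls and 118, 181 and 363 in the knockout livers (log2 change 1.05 ± 0.36 SE, adjusted p = 0.152). Col6a1 gave 71.0, 44.7 and 42.8 in the controls and 72.3, 98.8 and 262 in the knockout livers (log2 change 0.97 ± 0.37 SE, adjusted p = 0.208). Knockout liver 3 was the highest for both. In the brightest probe sets Col6a2 overlapped the controls, as did Col14a1 (log2 change 0.46) and Col12a1 (-0.40), which coat the surface of fibrils. The other probe set of Col6a2 had a change of 1.18, with overlap (adjusted p = 0.327 among probe sets). That of Col14a1 had a change of 0.51 with separate groups (adjusted p = 0.424 among probe sets).

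Beyond Tinag and Nid1, the basement membrane class held the paired chains of type IV collagen, its network-forming scaffold. Col4a1 gave 90.6, 42.9 and 68.0 in the controls and 147, 233 and 334 in the knockout livers, without overlap, yet it missed the threshold (log2 change 1.71 ± 0.47 SE, adjusted p = 0.0774). Col4a2 gave 54.1, 69.8 and 68.2 in the controls and 76.2, 116 and 149.6 in the knockout livers (log2 change 0.76 ± 0.46 SE, adjusted p = 0.453). Its groups did not overlap either, although livers 2 and 5 were close to the controls. Lamb1, a laminin chain, had a change of 1.02 (adjusted p = 0.186), and Col15a1, of the zone beside basement membranes, a change of 0.71 with overlap. Col18a1, the precursor of endostatin, had mean signals of 2152 ± 82.5 (SD, n = 3) in the controls and 2256 ± 261 (SD, n = 6) in the knockout livers, with a negative change of -0.41 in its other probe set (adjusted p = 0.239 among probe sets). Lamc1 had mean signals of 44.0 ± 23.1 (SD, n = 3) and 45.9 ± 16.0 (SD, n = 6).

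Proteases and their inhibitors all had positive changes and 0 of 7 passed at this threshold. Mmp12, macrophage elastase, gave 19.9, 7.5 and 3.3 in the controls and 35.1, 88.2 and 107 in the knockout livers. All 6 knockout livers were above the controls, which were close to background (log2 change 2.22 ± 0.61 SE, adjusted p = 0.0780). Mmp2, gelatinase A, gave 57.6, 19.6 and 51.4 and 59.2, 123 and 208 in the same order, with the lowest knockout liver just above the highest control (log2 change 1.38 ± 0.60 SE, adjusted p = 0.265). In the other probe set of Mmp2 the groups overlapped (log2 change 0.42, adjusted p = 0.581 among probe sets). The inhibitors Timp1, Timp2 and Timp3 had changes of 1.47, 1.04 and 1.08 (adjusted p = 0.178, 0.354 and 0.0906), each with separate groups in its brightest probe set. For Timp3, which binds to the matrix itself, another of its 4 probe sets passed (log2 change 1.19, adjusted p = 0.035 among probe sets). Mmp14, the membrane protease that activates Mmp2, had a change of 0.47, but its dimmer probe set passed, at 1.47 (adjusted p = 0.034 among probe sets). Adamts1, which cleaves proteoglycan cores, had a change of 0.98 (adjusted p = 0.217).

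Matricellular and adhesive glycoproteins had a median change of 0.05, and 0 of 7 passed. Mgp, matrix Gla protein, an inhibitor of calcification, gave 37.9, 52.8 and 83.7 in the controls and 56.4, 202 and 431 in the knockout livers. The spread was wide and liver 5 lay within the controls (log2 change 1.58 ± 0.93 SE, adjusted p = 0.438). Sparc, osteonectin, had a change of 0.84 with separate groups (adjusted p = 0.415). Fn1, fibronectin, a plasma protein that hepatocytes make, lay between 3267.9 and 3597 in all 9 livers. Ecm1, a glycoprotein of which liver is a main source, had a negative change, -0.58 (adjusted p = 0.362). The thrombospondins Thbs1 and Thbs2, which bind latent growth factors, had changes of -0.37 and 0.26, and Postn, periostin, had mean signals of 23.7 ± 19.0 (SD, n = 3) in the controls and 21.9 ± 19.5 (SD, n = 6) in the knockout livers.

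Lysyl oxidases cross-link collagen and elastin, and neither measured member passed. Lox gave 33.3, 37.3 and 25.7 in the controls and 3.0, 7.1 and 45.0 in the knockout livers, so that 5 of 6 lay below the controls and liver 5 above them (log2 change -1.11 ± 0.50 SE, adjusted p = 0.286). Another probe set of Lox pointed the other way (log2 change 1.04, adjusted p = 0.31 among probe sets), so the array gave no single direction for Lox. Loxl1, which acts on elastic fibres, had a change of 0.60 (adjusted p = 0.511).

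Of the 7 calls, Tinag and Emilin1 were kept in each of 15 fits that left out 1 array, and Omd in 13. Col5a2, Nid1, Lum and Bgn, with adjusted p between 0.0439 and 0.0469, were each lost without any 1 of the 3 controls and without knockout liver 1, 2, 3, 4 or 6, and Lum and Bgn without liver 5 as well: the count was 2 without control 1 or 2 and 3 without control 3 or 1 of those livers. Over all genes 1.7% were called in the main fit, and 0.378%, 0.462% and 0.43% without control 1, 2 and 3. The ratio of 3' to 5' actin signal is a sign of RNA integrity. It was 2.55 to 3.37 in the controls, 1.74 to 2.74 in the knockout livers and 1.51 to 2.06 in the tumours. With it as a covariate 0 of 42 members and 0.231% of all genes passed here, and the median change was 0.51. A fit of these 2 groups alone called 22 members and 10.5% of all genes. The part of the actin ratio in the result was not tested beyond that covariate, which moves with the groups.

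Promoters of the called members are shown because these genes were higher together. RefSeq windows of assembly GRCm38.p6 were at hand for 5 of the 7, given as the 250 bases before the transcript start, 5′ to 3′ on the gene's strand. They are chr9:77045782-77046031 (minus strand) for Tinag, chr5:30913536-30913785 (plus) for Emilin1, chr13:49582212-49582461 (plus) for Omd, chr13:13437352-13437601 (plus) for Nid1 and chrX:73483351-73483600 (plus) for Bgn. Capitals mark matches on either strand to GGGCGG, the GC box, or to CCAAT, which 2 motifs were searched together with TATAAA, the TATA box.
Tinag: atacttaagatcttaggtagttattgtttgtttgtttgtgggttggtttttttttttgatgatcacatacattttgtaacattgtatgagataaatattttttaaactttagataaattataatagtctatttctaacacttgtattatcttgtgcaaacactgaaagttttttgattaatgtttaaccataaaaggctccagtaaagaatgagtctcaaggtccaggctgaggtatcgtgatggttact
Emilin1: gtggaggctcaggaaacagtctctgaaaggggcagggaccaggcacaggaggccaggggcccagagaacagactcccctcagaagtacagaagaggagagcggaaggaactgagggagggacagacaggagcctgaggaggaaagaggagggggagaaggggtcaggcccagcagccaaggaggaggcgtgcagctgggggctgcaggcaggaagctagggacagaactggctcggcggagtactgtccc
Omd: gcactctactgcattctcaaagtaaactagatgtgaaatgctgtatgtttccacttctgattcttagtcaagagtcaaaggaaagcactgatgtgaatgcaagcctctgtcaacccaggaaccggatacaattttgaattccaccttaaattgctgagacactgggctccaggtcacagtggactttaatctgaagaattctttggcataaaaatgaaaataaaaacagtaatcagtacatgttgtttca
Nid1: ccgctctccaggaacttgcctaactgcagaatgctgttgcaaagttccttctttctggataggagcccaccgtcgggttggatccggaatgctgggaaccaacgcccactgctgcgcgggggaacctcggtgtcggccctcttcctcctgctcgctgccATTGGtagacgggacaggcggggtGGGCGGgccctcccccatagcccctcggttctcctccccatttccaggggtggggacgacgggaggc
Bgn: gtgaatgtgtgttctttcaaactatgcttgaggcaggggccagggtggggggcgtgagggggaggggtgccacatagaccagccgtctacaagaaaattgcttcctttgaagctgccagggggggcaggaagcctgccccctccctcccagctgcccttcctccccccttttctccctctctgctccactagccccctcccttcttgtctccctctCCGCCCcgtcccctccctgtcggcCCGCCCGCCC
Nid1 and Bgn, at 64.4% G and C each, held 1 and 3 GC boxes, those at the end of the Bgn window overlapping, and Nid1 held 1 CCAAT. Tinag, at 28.8%, Omd, at 38.4%, and Emilin1, at 63.2%, held none of the 3 motifs, so the called members did not share one in these windows. Over the 32 windows found for 28 members, 53.1% held a GC box, 31.3% a CCAAT and 15.6% a TATA box, against 32.7%, 33.8% and 12.4% of 32851 windows of the same length. A match is a run of letters and not a measured binding site.

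**Figure D2:**
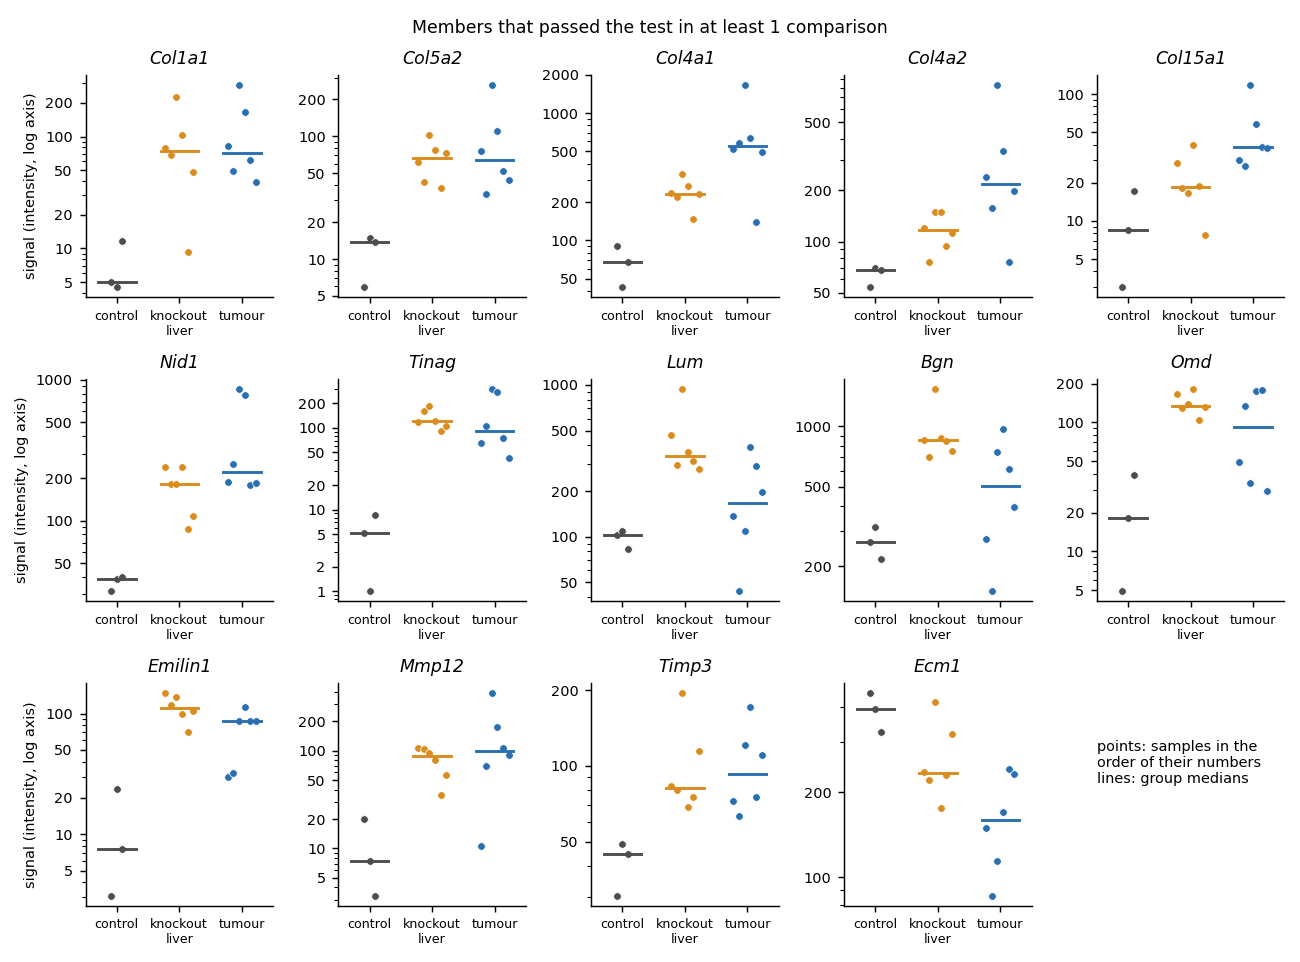
Signals on a log axis of the 14 members that passed in at least 1 comparison, with 1 point a sample and a line at each group's median. Controls lie below all knockout livers in Tinag, Nid1, Lum, Bgn, Omd, Emilin1 and Col5a2, and tumour 5-1 is the highest point in Col4a1, Col4a2, Nid1, Tinag, Col1a1, Col5a2 and Mmp12.

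The second comparison, tumours against knockout livers, asks which matrix genes set the tumours apart from the tissue around them. No member passed in limma, where 0.021% of all genes were called higher and 0.115% lower, that is 13 genes. At an unadjusted p under 0.05, 6 members were higher in the tumours, against 4.32% of all genes, and 8 were lower, against 6.01%. Those on the higher side were Col4a1, Col4a2, Col15a1, Nid1 and Lamc1 of the basement membrane class and Postn, and those on the lower side included Lum, Dcn and Bgn. In 0 members did the groups separate in either direction, which 0.126% of all genes did upward and 0.567% downward. The median change of the members was -0.17, against 0.01 over all genes.

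Classes differed in the side on which they lay, as a description of these tumours. The basement membrane class had a median change of 0.78 and the small leucine-rich proteoglycans of -1.13, while fibrillar collagens (-0.19), other interstitial collagens (-0.36), proteases and inhibitors (-0.24), elastic fibre genes (-0.12), matricellular glycoproteins (-0.12) and the 2 lysyl oxidases (0.02) lay between them.

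**Figure D3:**
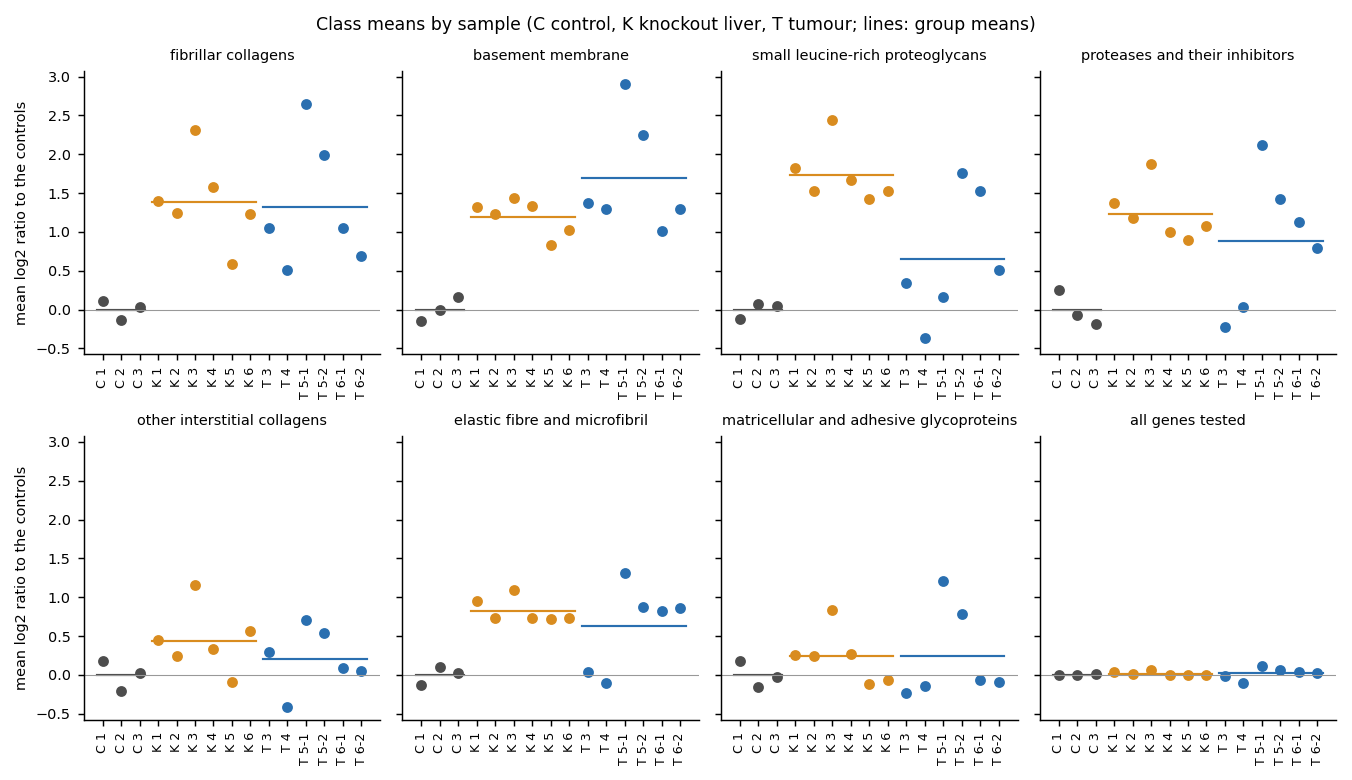
Mean log2 ratio to the controls over the genes of a class, 1 point a sample, with lines at the group means. Knockout livers lie above the controls in the fibrillar, basement membrane, proteoglycan and protease classes, tumours 5-1 and 5-2 are the highest points of the basement membrane class, and tumours 3, 4, 5-1 and 6-2 lie below all knockout livers in the proteoglycan class.

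Col4a1 gave 521, 583, 1669.9, 636, 138 and 491 in tumours 3, 4, 5-1, 5-2, 6-1 and 6-2. The first 4 and tumour 6-2 were above all knockout livers, and tumour 6-1 was below all of them (log2 change 1.17 ± 0.39 SE, adjusted p = 0.287). In the other probe set of Col4a1, tumours 4 and 6-1, at 159 and 141, lay within the knockout livers (80.2 to 169.4). That probe set had a log2 change of 1.16 (adjusted p = 0.257 among probe sets). Without tumour 6-1 Col4a1 passed with its brightest probe set (log2 change 1.55, adjusted p = 0.0149). This was the 1 call among members in the 15 fits that left out an array. Over all genes 0.703% were called without tumour 6-1, against 0.136% in the main fit. Col4a2 was also lowest in tumour 6-1, at 75.8, and highest in tumour 5-1, at 832, with a median of 219 (log2 change 0.99 ± 0.38 SE, adjusted p = 0.349). Col4a1 and Col4a2 are neighbours on chromosome 8 that are read in opposite directions, with starts at 11312826 and 11312805 in GRCm38.p6, which is 21 bases apart.

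Nid1 was 864 and 780.1 in the tumours of mouse 5 and between 179 and 254 in the other 4 tumours. Those 4 lay among or just above the knockout livers (log2 change 0.94 ± 0.38 SE, adjusted p = 0.403). Col15a1 gave 27.0, 38.2 and 119 as lowest, median and highest of the tumours, against 7.8, 18.5 and 40 in the knockout livers. The lowest tumour was above 4 of the 6 livers (log2 change 0.91 ± 0.34 SE, adjusted p = 0.338). Postn, which stromal cells of tumours secrete, gave 12.4, 55.4 and 93.6 in the tumours and 4.1, 16.5 and 53.9 in the knockout livers, with overlap (log2 change 1.15 ± 0.45 SE, adjusted p = 0.367). Only 2 of the 6 knockout livers were above the 40th percentile of their array for Postn. Lamc1, the gamma chain shared by most laminins, had a change of 0.66 (adjusted p = 0.443), with the opposite sign in its other probe set.

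On the lower side, Lum gave 136, 43.7, 109, 390.3, 292 and 196 in tumours 3, 4, 5-1, 5-2, 6-1 and 6-2, 4 of which were below all knockout livers (log2 change -1.29 ± 0.39 SE, adjusted p = 0.235). Dcn gave 326, 83.7, 118, 558, 600.4 and 387 in the same order. For Dcn tumours 3, 4 and 5-1 were thus below every control as well as every knockout liver (log2 change -1.26 ± 0.40 SE, adjusted p = 0.253). Bgn ranged from 150.1 in tumour 4 to 974 in tumour 5-2, with 4 tumours below all knockout livers (log2 change -1.0 ± 0.34 SE, adjusted p = 0.303), and Omd, which was not among the 8, from 29.4 to 178 (log2 change -0.75 ± 0.40 SE, adjusted p = 0.537). Mmp2 gave 3.4, 49.4 and 129.8 as lowest, median and highest, with tumours 3 and 4 at 13.8 and 3.4, below every control (log2 change -1.34 ± 0.49 SE, adjusted p = 0.338). Its other probe set had a change of -1.28 (adjusted p = 0.076 among probe sets). Ecm1 (-0.68), Col6a1 (-0.80), Emilin1 (-0.67) and Col18a1 (-0.43) were the others of the 8.

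Tumours were next set against the liver of the same mouse, with tumours of 1 mouse averaged. With 4 mice an exact two-sided sign-flip permutation test cannot go below 1 in 8, so the differences are given without a test. In all 4 mice 4 members were higher in the tumour, Col4a1, Col4a2, Nid1 and Postn, and 6 were lower, Lum, Dcn, Omd, Ecm1, Col18a1 and Fn1. Over all genes these shares were 6.65% and 8.54%. Col4a1 differed by 0.63, 1.10, 2.74 and 0.17 on the log2 scale in mice 3, 4, 5 and 6, and Postn by 0.45, 0.97, 1.77 and 1.37. Both were highest in mouse 5, and for Nid1 nearly all of the difference lay in mice 5 and 6, at 0.03, 0.08, 3.11 and 0.70. Lum differed by -2.71, -2.82, -0.57 and -0.22 and Dcn by -1.88, -2.43, -0.97 and -0.48, with the more negative values in mice 3 and 4. Fn1 differed by only -0.50, -0.20, -0.09 and -0.02. Of the 6 tumours, 2 were above their own liver for Lum, 2 for Omd, 2 for Fn1, 1 for Dcn and 1 for Col18a1. Taken singly, each of the 6 tumours was above its own liver for Nid1 and Postn, and below it for Ecm1 (-1.43, -0.96, -0.68 and -0.42 by mouse). For Nid1 this held in its brightest probe set only. In its second probe set tumour 3 was at 35.4 against 69.6 in liver 3, and tumour 4 at 87.4 against 88.3 in liver 4. That probe set was thus not higher in all 4 mice.

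Mice split by the sign of most members. In mice 3, 4, 5 and 6, 10, 8, 34 and 13 of the 42 members were higher in the tumour than in the liver, against 46.4%, 42.5%, 54.5% and 50.4% of all genes. The mean difference of the fibrillar collagens was -1.26, -1.06, 1.74 and -0.36, and that of the proteases and inhibitors -2.09, -0.97, 0.87 and -0.12. With tumours of a mouse averaged, the proteoglycan mean was lower in every mouse, at -2.09, -2.03, -0.47 and -0.51. The basement membrane class was near the liver in mice 3, 4 and 6 and above it in mouse 5, at -0.06, -0.04, 1.75 and 0.12. So in each of the 4 mice this averaged basement membrane difference lay above the proteoglycan one. Single tumours differed from these averages. Relative to the controls, the proteoglycan mean was 1.77 in tumour 5-2 against 1.43 in liver 5, and 1.53 in both tumour 6-1 and liver 6. The basement membrane mean was 1.02 in tumour 6-1 against 1.03 in liver 6. Mgp had the widest spread of a member, -4.38, -2.37, 3.66 and -0.91, and Col1a1 differed by -1.37, -0.96, 3.64 and 0.03. Knockout liver 5, the partner of the tumours of mouse 5, had the lowest mean of all members among the knockout livers, 0.55, and liver 3 the highest, 1.49, and each difference takes in the value of its liver.

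**Figure D4:**
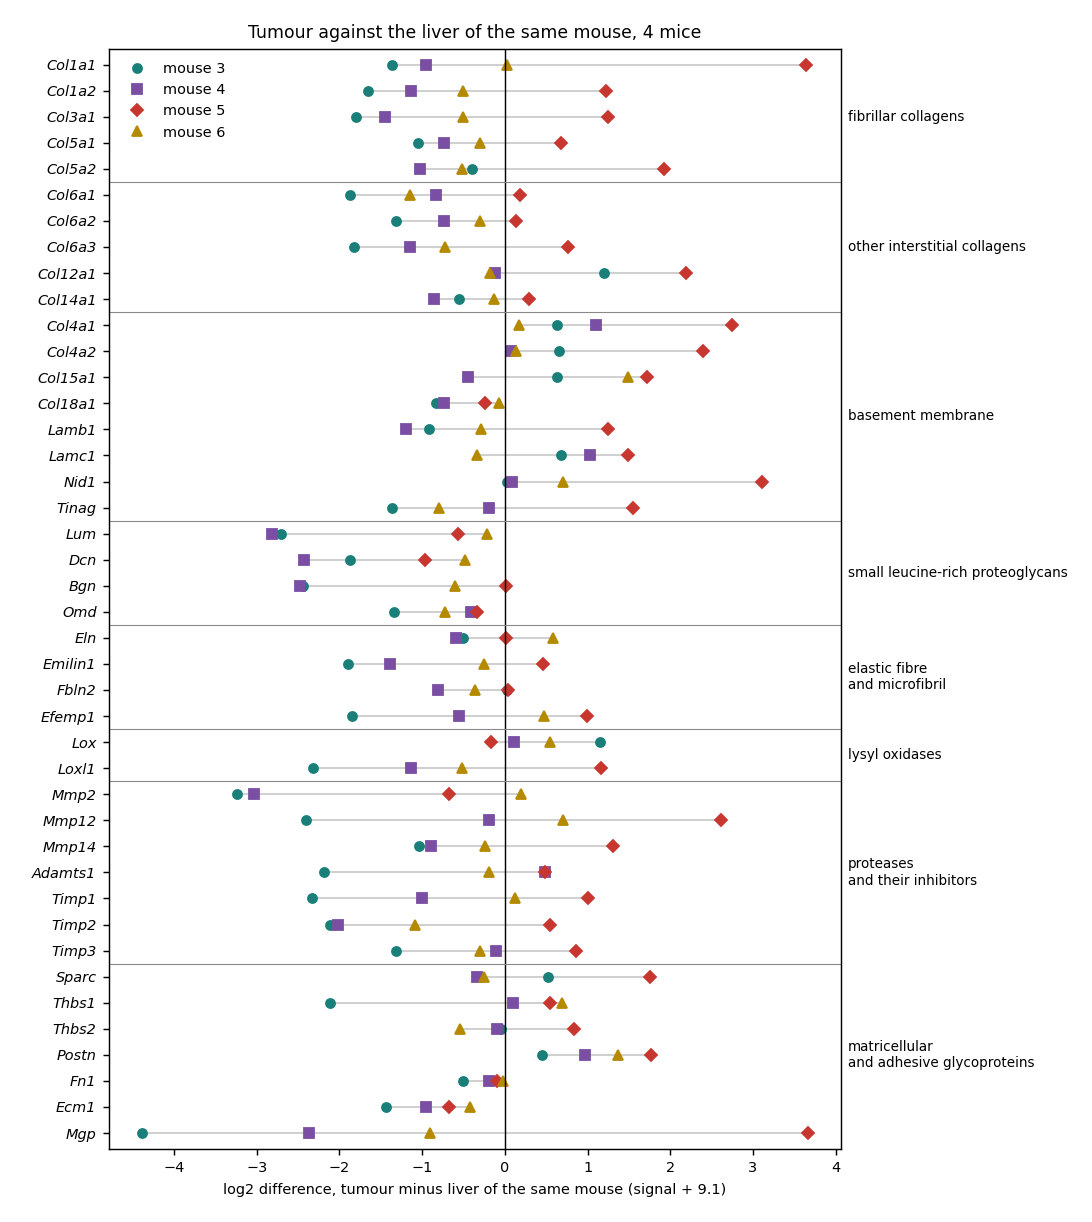
Log2 difference between tumour and liver of the same mouse for each of the 42 members, 1 symbol a mouse, with tumours of 1 mouse averaged. Mouse 5 (red diamonds) lies furthest right for most collagens, Nid1 and Mgp, mice 3 and 4 (green circles, purple squares) lie left of 0 for the proteoglycans and Mmp2, and for Col4a1, Col4a2, Nid1 and Postn all symbols lie right of 0.

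The third comparison, tumours against controls, shares its controls with the first and its tumours with the second, so its values are given side by side and not as separate evidence. Of the 42 members 11 rose and 1 fell, where 4.01% of all genes were called higher and 2.96% lower. Of the 11, Col1a1, Col5a2, Col15a1, Tinag, Emilin1 and Mmp12 were close to background in every control. They could pass the filter only through knockout livers or tumours. The groups were separate upward in 9 members, which 5.34% of all genes were, and downward in 1, which 6.13% were. Basement membrane genes held 5 of the 11: Tinag (log2 change 3.16 ± 0.45 SE, adjusted p = 0.000677), Col4a1 (2.88), Nid1 (2.85), Col4a2 (1.75) and Col15a1 (1.63). The median change of this class was 1.69, against 0.70 for the proteoglycans, 0.91 for the fibrillar collagens, 0.93 for proteases and inhibitors and 0.70 for all members (-0.02 over all genes).

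Col1a1 rose in the tumours, with signals of 39.1, 71.8 and 291 (lowest, median, highest), all above the controls (log2 change 2.64 ± 0.62 SE, adjusted p = 0.0155). Leaving out control 1, 2 or 3 ended this call, as did the mean of its probe sets (log2 change 1.46, adjusted p = 0.0520), and the other probe set had a change of 0.29 (adjusted p = 0.692 among probe sets). Col5a2 ranged from 33.6 to 263 and rose as well (log2 change 2.08 ± 0.44 SE, adjusted p = 0.00961). Mmp12 gave 10.6, 98.5 and 389. Tumour 3, at the low end, lay within the controls, and the other 5 lay above them (log2 change 2.53 ± 0.61 SE, adjusted p = 0.0188). Timp3, from 63.2 to 172, was above every control (log2 change 1.09 ± 0.31 SE, adjusted p = 0.0438). Its call was kept in 4 of 15 fits that left out 1 array, was lost with the mean of its probe sets (log2 change 0.64, adjusted p = 0.136), and its other 3 probe sets did not pass. Emilin1 (1.99, adjusted p = 0.00441) and Omd (1.74, adjusted p = 0.0376) rose here as they did in the knockout livers. The call of Omd was kept in 7 of 15 fits that left out 1 array. That of Emilin1 was lost with the mean of its probe sets and with tumours and controls alone in the fit. The other probe set of Emilin1 had a change of 0.31 (adjusted p = 0.802 among probe sets). Lum (0.66) and Bgn (0.74) did not pass, and Dcn had a change of -0.50. Ecm1 fell, from 449, 395 and 327 in the controls to 86.1, 160.1 and 241 in the tumours, all below the controls (log2 change -1.26 ± 0.29 SE, adjusted p = 0.0154). Col18a1 did not pass with its brightest probe set (-0.37), but its other probe set was called lower (-0.99, adjusted p = 0.00208 among probe sets), as was the mean of both (-0.68, adjusted p = 0.0226).

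Side by side, the changes from control in knockout liver and in tumour were 3.32 and 3.16 for Tinag, 1.71 and 2.88 for Col4a1, 1.95 and 0.66 for Lum and 1.73 and 0.74 for Bgn. Direct tests of tumours against knockout livers passed for none of these. The count of 12 was 5 without control 1 or without control 2, and 4 with these 2 groups alone in the fit. It was 0 with the actin ratio as a covariate, where the median change was 0.23. Over all genes 6.97% were called in the main fit, and 2.62%, 2.61%, 1.3% and 0.252% in these fits, in that order. Tinag, Nid1, Col4a1 and Emilin1 kept their call in each of the 15 fits that left out 1 array.

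Single samples carried much of the spread. Tumour 5-1 was the highest of the 6 tumours in 28 of 42 members, against 28.5% of all genes. It was the highest of all 15 samples in 20, against 18.9% of all genes. Its signals were 2304 for Sparc, where the next tumour had 799.9, 1153 for Mgp against 581, 263 for Efemp1 against 81.6, and 141.4 for the collagenase Mmp13 against at most 25.6. These genes were chosen after their values were seen. The same tumour was the second lowest of the 6 for Dcn, Lum and Omd and the second highest for Bgn. Tumour 4 was the lowest tumour in 16 members and tumour 3 in 10, counts for which the share over all genes was not computed. Knockout liver 3 was the highest of the knockout livers in 26 members, against 23.1% of all genes. Without tumour 5-1 the count of calls was 12 for knockout livers and 11 for tumours, each against controls, and without knockout liver 3 it was 3 and 11. Over all genes 3.2% and 6.74% were called without tumour 5-1, and 0.766% and 5.8% without knockout liver 3.

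Summed signals of markers of other cell types differed between samples, while single markers of a list went both ways. From control to knockout liver the change was positive in 8 of 11 macrophage markers and 7 of 12 stellate cell markers. It was positive in 2 of 4 portal fibroblast, 5 of 6 bile duct and 8 of 10 endothelial markers. From control to tumour these counts were 7, 3, 2, 5 and 5, in the same order. The summed signal of 11 macrophage markers was 2006.1 to 2092.9 in the controls, 2623.3 to 4608.8 in the knockout livers and 1161.8 to 6718.4 in the tumours, lowest in tumour 4 and highest in tumour 5-1. Cd68 and Lyz2 of that list were called higher in the knockout livers, with Mpeg1 in the tumours. The sum of 12 stellate cell and myofibroblast markers was 1284.3 to 1580.1 in the controls and 1678.0 to 3873.2 in the knockout livers, with the highest in liver 3, and 804.7 to 3129.3 in the tumours, with the lowest in tumour 4 and the highest in tumour 5-1. Of these only Pdgfrb was called, with a log2 change of 1.51 from control to knockout liver (adjusted p = 0.0291), and Acta2, the usual myofibroblast marker, had mean signals of 137 in the controls, 146 in the knockout livers and 111 in the tumours. Markers of bile duct (104.1 to 206.8, 298.1 to 462.1 and 85.0 to 406.4 over 6 genes), endothelium (975.1 to 1358.9, 1270.2 to 1748.0 and 524.1 to 1502.5 over 10 genes) and portal fibroblasts with mesothelium (270.5 to 281.0, 283.6 to 591.4 and 195.0 to 963.1 over 4 genes) are given in the order of controls, knockout livers and tumours. Cdh1 of the duct list, which hepatocytes also express, and Entpd2 of portal fibroblasts were called higher in both comparisons with controls. Close to background in the controls were Krt7 and Cldn7 of the duct list, Pecam1 and Vwf of the endothelial list, Lhx2 of stellate cells and Gpnmb of macrophages. The part of these cells in the matrix values was not tested.

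Other genes of the matrix pathway were taken from 4 lists that hold no members. Of 14 genes of collagen folding and processing, 0 were called in the knockout livers and 1, Serpinh1, the collagen chaperone, was higher in the tumours than in the controls (log2 change 1.61 ± 0.44 SE, adjusted p = 0.0335). Of 17 matrix receptors, Itgb5 was called higher in both (0.88 and 0.76), and in the tumours Cd44, the hyaluronan receptor, was higher (1.38) and Sdc4 lower (-0.63). Of 19 other proteases and members of the plasminogen system, Adamts5, an aggrecanase (1.59 and 1.27), and Ctsl, a lysosomal protease (0.75 and 0.76), were called higher in both. Of 28 other matrix proteins 0 were called in either, and Vtn, vitronectin, the brightest of them, had mean signals of 6069.6 in the controls and 6883 in the knockout livers. Against knockout livers, the tumours had 0 called genes in all 4 lists, where 0.136% of all genes were called. The medians of the 4 lists in the knockout livers were 0.02, 0.41, 0.27 and 0.31, in the order given.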

How the data were processed

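The deposited values are Affymetrix intensities, 1 signal per probe set on a linear scale, made by the authors with MAS5 per the submitters' processing notes. Its version and settings are not given in the sources used here. The trimmed mean with 2% cut at each end was 150.1 on every array, so arrays had been scaled to each other before deposit. Of 22690 probe sets, 64 controls were left out. The dim filter, the 40th percentile of an array, lay between 22.6 and 32.9.

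Probe sets with 1 gene that passed the filter in at least 3 arrays were kept, the brightest stood for its gene, and log2(signal + 9.1) was taken, where 9.1 is the 20th percentile of all signals. limma 3.58.1 with statmod 1.5.0 in R 4.3.3 fitted the 3 group means on all 15 arrays with a variance trend, with the 9 animals as a random block (consensus correlation -0.02), and p-values were adjusted by the Benjamini-Hochberg method over 9528 genes. Values "among probe sets" come from the same fit on 14796 probe sets with 1 gene. The fit was tested on simulated data. The pairing of livers and tumours rests on the labels, since deviations of a liver and a tumour of the same mouse correlated between -0.155 and 0.088. Nothing in the labels speaks of technical repeats, and no pair of arrays shared more than 122 equal signals.

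The members and lists were chosen with earlier results of these data known. All members are named. Signals are given for called members and for the member with the largest change in a class, and for a few others, such as Dcn, Sparc, Efemp1 and Mmp13, chosen after their values were seen. Alternatives were another constant, filter, scaling, choice of probe set, samples in the fit, block or variance prior, the actin ratio as a covariate, and leaving out each array.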

Additional observations from a re-analysis of the deposited data

Results flagged for a closer look

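In 8 of 84 combinations of a gene and a group of 6 samples, 1 sample stood apart from the rest by more than Dixon's limit, which chance passes in about 1 in 20 groups. Knockout liver 3 was the sample in 6 of them, always as the highest: its signal was 367.2 for Col1a2 (next liver 189), 186.9 for Col5a1 (next 99.6), 262.2 for Col6a1 (next 117), 1222 for Dcn (next 684.4), 1538.4 for Bgn (next 874.7) and 454.5 for Timp2 (next 249.8). Knockout liver 5 stood apart for Lox, at 45 against 12.1 in the next liver. Tumour 3 had a signal of 3.5 for Thbs1, a thrombospondin, where the next lowest tumour had 31.0. The genes come from the same samples and are not independent of each other.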

How the results depend on the processing

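Members called between knockout livers and controls numbered 7, and 3 with no filter, 22 with the 2 groups alone and 11 with the tumours of a mouse averaged. They numbered 0 with the actin covariate, 3 without the variance trend and 2 to 12 when 1 array was left out. Over all genes 1.7% were called, and in these fits 1.07%, 10.5%, 3.68%, 0.231%, 1.06% and 0.378% to 3.2%, in that order. The median change of the members with the actin covariate was 0.51. Tumours against controls gave 12, and 4 with the 2 groups alone, 0 with the actin covariate and 5 to 13 when 1 array was left out. Over all genes the shares were 6.97%, and 1.3%, 0.252% and 2.33% to 8.22%, in that order. Tumours against knockout livers gave 0 to 1 when 1 array was left out and 0 otherwise. Over all genes the share was 0.136% in the main fit, and 0% to 0.703% when 1 array was left out. Members higher in all 4 tumour and liver pairs numbered 2 with each tumour taken singly, against 4. The cause of these moves was not tested.

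Among changes of at least 0.25 in size, the sign turned with the actin covariate for Col15a1 (-0.36), Efemp1 (-0.15) and Sparc (-0.0039) in knockout livers, and for Efemp1 (-0.57) and Mgp (-0.72) in tumours, against controls. Smaller changes turned too, among them Mmp2 (to -1.14), Timp2 (-0.84) and Mmp14 (-0.33) in tumours and Col18a1 (-0.29) and Lamc1 (-0.21) in knockout livers. Lox in tumours against controls was 0.41 with the mean of its probe sets. For tumours against knockout livers, Mmp12 was -0.039 with tumours averaged, and leaving out 1 array moved Col1a1 between -0.059 and 0.71, Mmp12 between -0.073 and 0.79 and Timp1 between -0.63 and 0.10. In all, 2531 of the recomputed counts, medians and changes of at least 0.25 kept direction and side of the threshold, 119 lost a call, 35 gained one, 21 counts or medians moved and 10 turned sign.

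With the mouse as a fixed replicate block over the 4 paired mice, 0 members passed and the median change was -0.22; with no replicate block the counts were 7, 0 and 12, as with the random block. Genes close to background in controls (8 of 42) have sizes that depend on the constant.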
